A study of Mus musculus with 25 samples.

Results

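Induced hepatocyte-like cells (iHeps) are made from fibroblasts by forced expression of liver transcription factors, without passing through a pluripotent state. The 3 arrays of cultured iHep lines and the 2 arrays of adult liver, 5 of the 25 arrays of the series, were chosen by their sample titles and compared over all annotated genes. The iHep lines are labelled as independent lines. They came from embryonic fibroblasts of C57BL/6J mice at E13.5 that received Foxa1 and Hnf4a retroviruses and were then expanded on gelatin and on collagen. The medium held serum, insulin, dexamethasone, nicotinamide, hepatocyte growth factor and epidermal growth factor, and the lines carried no shRNA. The adult liver arrays are labelled as C57BL/6J liver at 8 weeks of age, harvested fresh. Their growth protocol instead describes hepatocytes freed with collagenase from mice of 10 weeks, so the labels leave unsettled whether whole tissue or isolated cells were used. Fetal liver of C57BL/6J mice at E14.5 (2 arrays, E for embryonic day) is given beside them where it bears on a gene. The labels do not say whether the 2 adult livers came from separate animals, so a p reported here need not reflect the spread among animals. It rests on a spread per gene estimated over 11 arrays, which also include fetal liver, colon-engrafted iHep and colon arrays.

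Hepatocytes make most plasma proteins, convert ammonia to urea, release glucose between meals, and turn cholesterol into bile acids. A network of transcription factors that bind each other's genes, with the HNF4, FOXA, HNF1 and C/EBP families at its centre, holds this programme in place. Hnf4a is a nuclear receptor needed for most hepatocyte functions, and Foxa1 is a forkhead factor that opens closed chromatin.

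Values are RMA log2 signals of 1 probe set per gene, so a difference of 1 is a doubling of signal. Per-array values are given in the order iHep 1, 2 and 3 and adult liver 1 and 2. Over all 45101 probe sets of the arrays, tested or not, the iHep arrays correlated at Pearson r 0.972 to 0.986 with each other. The adult livers correlated at 0.967, and iHep with adult liver at 0.714 to 0.741 (across probe sets, which are not independent replicates). Of the annotated genes, 15262 were tested. Below the 40th percentile of an array, 5.56 to 5.80 here, a fold change is limited by probe background and is no exact size. The median standard error (SE) of a log2 fold change was 0.28, and the number of arrays limits the precision.

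The control RNAs added to every sample moved with the groups. The 10 probe sets of the bacterial hybridization controls bioB and bioC averaged 9.32, 9.27 and 9.63 on the iHep arrays, against 11.67 and 11.24 on the adult liver arrays, a difference of -2.05. The 24 probe sets of the poly-A controls averaged 8.45, 8.30 and 8.59 in iHep and 10.42 and 9.58 in adult liver. For Actb, the 3′ probe set exceeded the 5′ one by 0.36, 0.41 and 0.41 in iHep and by 1.21 and 1.99 in adult liver, a difference used on these arrays to judge RNA and amplification quality. Each of these 3 measures separated iHep from adult liver without overlap, and their part in the results was not tested. An alternative chosen after seeing the data scaled the arrays to the bioB and bioC probe sets alone, and is called scaling to the added controls below. It moved the median log2 fold change of all genes to 2.31 from 0.26. The calls became 13475 higher and 646 lower among 15262 genes tested (95.4% of calls higher, against 67.5% as deposited). Counts given below under this scaling are to be read against those totals. Of the genes called lower, 980 were lower by more than the control difference and 1794 by less, so the direction of the smaller decreases depends on the scaling.

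**Figure D1:**
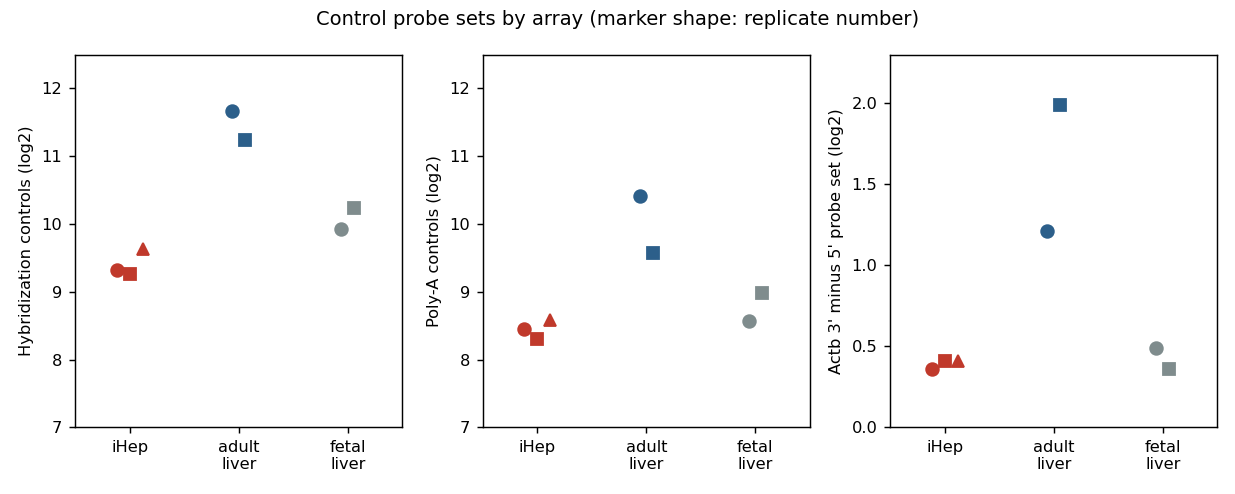
Control probe sets on each array: mean log2 signal of the added hybridization controls (left) and poly-A controls (middle), and the log2 difference between the 3′ and 5′ Actb probe sets (right), for iHep, adult liver and fetal liver. The 2 adult liver points lie above all 3 iHep points in each panel, at 11.67 and 11.24 for the hybridization controls.

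The transduced genes were examined first. Hnf4a measured 7.67, 10.78 and 10.48 in iHep and 11.75 and 12.12 in adult liver, so all 3 lines lay below both livers and iHep 1 lay furthest below (log2 fold change -2.29, SE 0.77, limma adjusted p 0.0289). That call ended without adult liver 1 (-2.48, adjusted p 0.0876) or adult liver 2 (-2.11, adjusted p 0.134), and the difference was -1.30 without iHep 1. Foxa1 measured 4.30, 4.14 and 4.52 in iHep, under the 40th percentile, and 6.72 and 8.55 in adult liver (-3.32, SE 0.55, adjusted p 0.000554). The sources used here do not say whether these probe sets lie within the transduced sequences, so they need not report the retroviral copies.

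In all, 8537 genes (55.9% of those tested) passed a Benjamini-Hochberg adjusted p of 0.05 in limma, 5763 higher in iHep (37.8%) and 2774 lower (18.2%). The median log2 fold change of the called genes was 1.86 for those higher and -1.46 for those lower, and 2598 genes were higher by at least 2 against 1005 lower. At a log2 change of 4 or more the counts were 415 higher and 441 lower, and at 6 or more 55 higher and 216 lower. Among those called lower, 785 lay under the 40th percentile in iHep, and among those called higher, 952 lay under it in adult liver. Beyond the secreted and surface genes at the top of the list, the 10 highest genes included Emp1, an epithelial membrane protein (12.93, 12.11 and 11.96 in iHep, against 5.17 and 4.23 in adult liver, log2 fold change 7.63), and Far1, which makes fatty alcohols for ether lipids (12.77, 12.30 and 12.37 in iHep, against 5.72 and 4.21, 7.52). Among genes with both group means above the 40th percentile, Mgp, a secreted inhibitor of calcification, had a log2 fold change of 6.84, Spink1, a trypsin inhibitor, 7.16, and Slc25a4, a heart and muscle ADP/ATP carrier, 6.25. Cfi, a complement protease, measured 5.80, 6.33 and 5.98 in iHep, above that percentile on each array, and 14.38 and 14.11 in adult liver (-8.21).

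**Figure D2:**
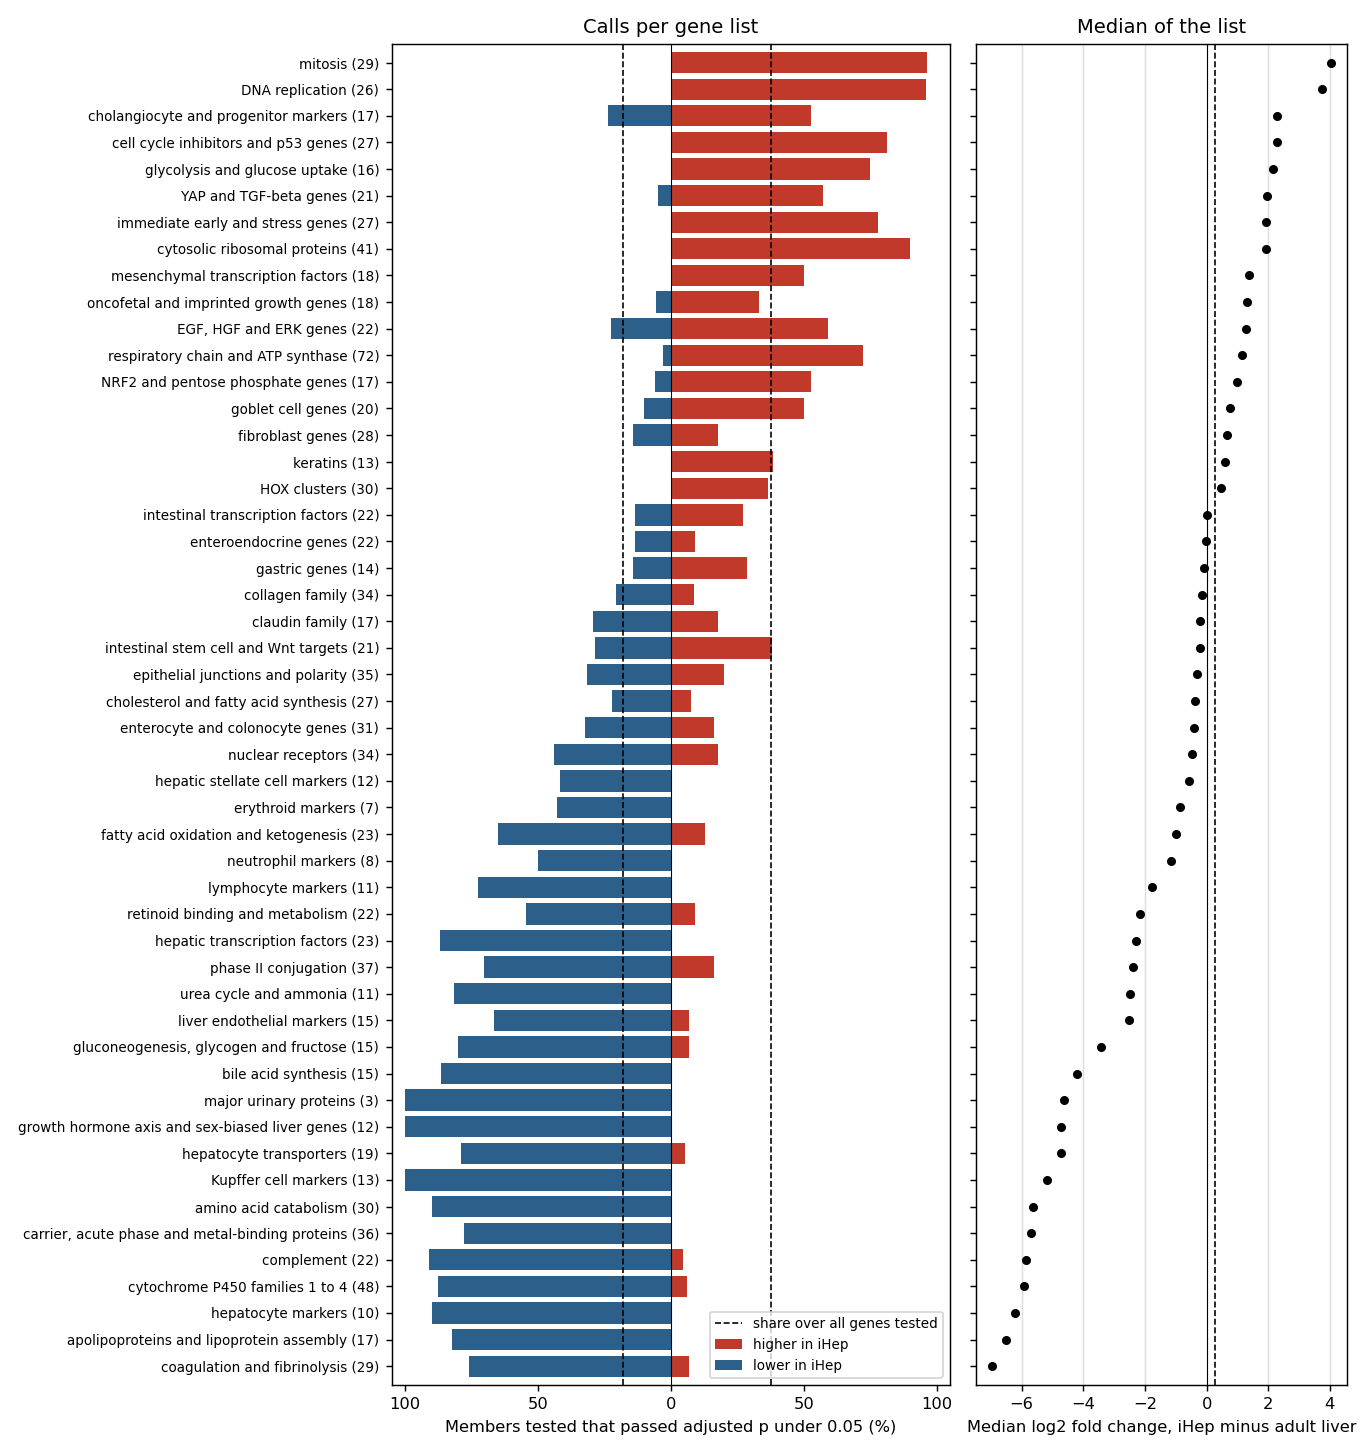
For each gene list (number of members tested in brackets), the percentage of members called higher in iHep (red, right) or lower in iHep (blue, left), with dashed lines at the shares over all genes tested, 37.8% and 18.2%. The right panel gives each list's median log2 fold change, iHep minus adult liver, with a dashed line at the median of all genes, 0.26.

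Of 350 tested genes in the 14 hepatocyte lists, 267 were lower (76.3%, against 18.2% of all genes tested), 19 were higher and 64 did not pass. Their median log2 fold change was -4.01, and their median level was 6.39, 6.56 and 6.86 in iHep, against 11.45 and 11.98 in adult liver. Members low on all arrays were not tested and are not in these counts. The lists go by function and also hold some genes of other liver cells, such as C1qa, C1qb and C1qc of Kupffer cells. Tests on lists were not run, since the lists were chosen with earlier results of these data known. Of the hepatocyte markers used to check the label, 9 of 10 tested were lower. Their mean level was 6.21, 7.81 and 8.76 in iHep, against 13.94 and 14.05 in adult liver. The order of the lines in that mean was not shared by every marker: Alb, Ttr, Cyp3a11 and Fgb, given below, were lowest in iHep 1, and G6pc was lowest in iHep 2.

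In the urea cycle list, 9 of 11 members were lower and the other 2 did not pass (median -2.50). With the arrays scaled to the added controls 5 were lower and 2 higher (median -0.46). Otc, which joins carbamoyl phosphate to ornithine, measured 3.89, 3.57 and 4.61 in iHep and 11.95 and 12.87 in adult liver (-8.39, SE 0.66, adjusted p 4.89e-06). The iHep values were at probe background. Cps1, the mitochondrial entry enzyme of the cycle, had a log2 fold change of -9.21, and Arg1, which releases urea, -7.36. The enzymes on either side of ammonia that many tissues share did not pass. Glutamine synthetase (Glul) measured 12.72, 11.96 and 12.61 in iHep and 11.50 and 12.28 in adult liver, and was called higher without adult liver 2 (0.93) or iHep 2 (0.78). Glutamate dehydrogenase (Glud1) measured 11.92, 11.72 and 11.33 in iHep and 11.55 and 12.08 in adult liver. Of 30 amino acid catabolism genes, 27 were lower (median -5.62), including Hpd of tyrosine breakdown (-8.33) and Bhmt, which remethylates homocysteine (-8.85). The glycine cleavage enzyme Gldc did not pass, with 9.47, 11.53 and 11.93 in iHep and 11.06 and 11.41 in adult liver.

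For glucose release, 12 of 15 genes were lower (median -3.42). G6pc, which frees glucose from its phosphate, measured 4.01, 3.77 and 4.40 in iHep and 12.64 and 13.31 in adult liver (-8.92, SE 0.33), and Fbp1 of gluconeogenesis -8.64. In contrast, 12 of 16 genes of glycolysis and glucose uptake were higher (75%, against 37.8% of all genes), with a median of 2.14. When shared probe sets were left out, 5 of 8 were higher. Shared here means a name ending in _s_at, _x_at or _a_at, for probe sets that can read several transcripts, of the same gene or of several genes. Hk1, the hexokinase of most tissues, measured 10.43, 10.12 and 10.78 in iHep and 7.02 and 6.02 in adult liver (3.92, SE 0.30), and the groups did not overlap. Pfkp and Hk2 had log2 fold changes of 3.65 and 3.44.

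Several enzymes and carriers exist as a liver form and a general form, and such pairs were set side by side. These genes were chosen after their values were seen. The liver glucose carrier Slc2a2 measured 3.86, 3.74 and 3.77 in iHep and 12.58 and 13.44 in adult liver (-9.22, SE 0.38), while the general carrier Slc2a1 measured 12.04, 11.66 and 12.04 in iHep and 9.79 and 10.42 in adult liver (1.81, SE 0.25). The 2 carriers thus changed in opposite directions in every line, although Slc2a1 was higher still in fetal liver, at 13.51 and 13.86. Liver pyruvate kinase Pklr was lower (-2.39) and Pkm, the form of most tissues, was higher (4.94). Liver glycogen synthase Gys2 measured 4.01, 4.13 and 4.24 in iHep and 9.37 and 9.19 in adult liver (-5.16). The general form Gys1 was called higher by only 0.81, which ended without adult liver 1 (0.61, adjusted p 0.0692). Brain-type glycogen phosphorylase Pygb was higher (3.91), and the liver form Pygl did not pass over the 3 lines: it measured 6.60 in iHep 1 and 10.31 and 11.46 in iHep 2 and 3, against 11.33 and 12.50 in adult liver. It passed without iHep 3 (-3.46).

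Among lipid enzymes, also chosen after their values were seen, Scd2, the stearoyl-CoA desaturase prominent in brain, measured 13.60, 13.12 and 14.07 in iHep and 6.90 and 5.05 in adult liver (7.62, SE 0.48). Scd1, the main liver desaturase, measured 11.21, 10.83 and 12.14 in iHep and 12.79 and 14.39 in adult liver (-2.20), a call that ended without adult liver 2 (-1.40, adjusted p 0.0528). Acacb, the acetyl-CoA carboxylase that restrains fatty acid oxidation, was lower (-5.16), whereas Acaca, the form that feeds fatty acid synthesis, differed by 0.18 and did not pass. The 3 genes of serine synthesis were higher in iHep. Phgdh, its first enzyme, measured 12.71, 12.64 and 12.16 in iHep and 6.00 and 5.88 in adult liver (6.57, SE 0.34, adjusted p 4.48e-07). Psat1 and Psph, the next enzymes of the path, had log2 fold changes of 7.42 and 4.48, and Asns, which makes asparagine, 4.65. In fetal liver Phgdh measured 11.01 and 9.79 and Asns 12.49 and 12.36, so adult liver was the low group for both.

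**Figure D3:**
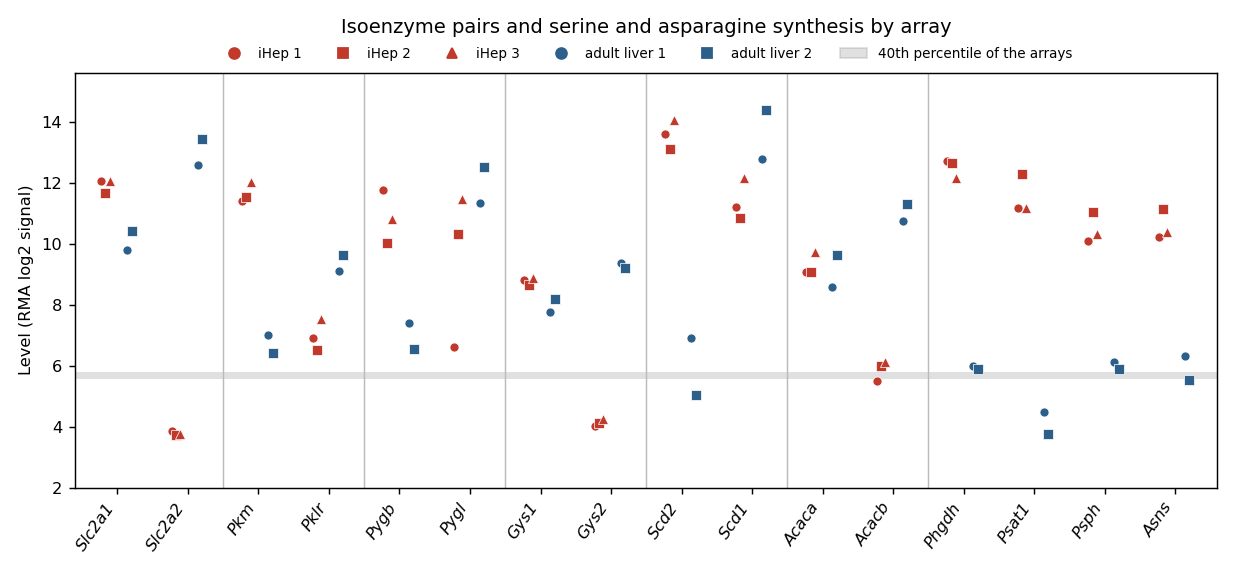
Level (RMA log2 signal) of isoenzyme pairs, general form left and liver form right of each pair (for the carboxylases, Acaca left and Acacb right), and of serine and asparagine synthesis genes on each iHep array (red) and adult liver array (blue). The grey band marks the 40th percentile of the arrays, 5.56 to 5.80. The markers of Slc2a2, Gys2 and Acacb in iHep lie at or near the band or below it.

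Genes of bile acid and drug handling were mostly lower. Of 15 bile acid synthesis genes, 13 were lower (median -4.22), among them Cyp7b1 and Cyp8b1, which hydroxylate the sterol ring (-7.24 and -6.90), and Slc27a5, which activates bile acids for conjugation (-8.59). Of 19 hepatocyte transporters, 15 were lower. The uptake carriers Slco1b2 and Slc10a1 had log2 fold changes of -8.51 and -7.26, and the bile salt export pump Abcb11 measured 6.59, 6.56 and 6.35 in iHep and 13.44 and 14.00 in adult liver (-7.23, SE 0.27). Abcg2, an efflux pump found in many epithelia, measured 10.99, 10.72 and 10.75 in iHep and 10.85 and 10.50 in adult liver and did not pass (95% interval -0.34 to 0.65). In the cytochrome P450 families 1 to 4, 42 of 48 genes were lower and 3 higher (median -5.91). Of 37 conjugation genes, 26 were lower and 6 higher (median -2.38), and 16 were lower and 12 higher with scaling to the added controls (median -0.33). Cyp1a2 and Cyp2c29 had log2 fold changes of -9.27 and -9.48, and the glucuronosyltransferase Ugt2b36 -9.28, each with iHep at probe background. Within the same list Ephx1, which opens epoxides, measured 12.73, 12.51 and 12.97 in iHep and 12.06 and 12.30 in adult liver, and Gstp1, a glutathione transferase, 13.43, 13.44 and 13.45 in iHep and 13.73 and 12.93 in adult liver, and neither passed, although Ephx1 was called higher without iHep 2 (0.67). In fetal liver Ephx1 measured 6.91 and 7.32, well below both.

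Most genes of the plasma protein lists were lower. The counts were 14 of 17 for apolipoproteins and lipoprotein assembly (median -6.50) and 22 of 29 for coagulation and fibrinolysis (-6.95). For complement they were 20 of 22 (-5.87), and for carrier, acute phase and metal-binding proteins 28 of 36 (-5.71). Not all members are secreted: Cd55, Cd59a, Thbd, Tfrc and Tfr2 are membrane proteins, and Fth1, Mt1 and Mt2 act within cells. C1qa, C1qb and C1qc of the complement list are also among the Kupffer cell markers below. Coagulation and apolipoproteins had the lowest medians of the lists examined. Orm1, which binds drugs and steroids in plasma, measured 4.52, 4.29 and 4.36 in iHep and 14.05 and 13.70 in adult liver (-9.49, SE 0.31). Serpinc1, antithrombin, had a log2 fold change of -9.46, Itih3, a hyaluronan-binding chain, -9.91, and the acute phase protein Crp -9.05. Members that did not pass included Serpina1b, an alpha-1-antitrypsin gene whose probe set may also read its near-identical copies (13.88, 13.46 and 12.87 in iHep, against 14.68 and 14.54), and Itih2, an inter-alpha-inhibitor chain (12.67, 11.82 and 12.45 in iHep, against 13.56 and 13.27).

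Neighbouring genes of 1 cluster differed from each other. The 3 fibrinogen chains lie side by side on mouse chromosome 3 and are assembled into 1 protein. Fgb measured 11.62, 13.88 and 14.34 in iHep and 14.31 and 14.20 in adult liver (-0.98, SE 0.66, adjusted p 0.239), with iHep 3 at the adult level and iHep 1 lowest. Fga measured 3.83, 4.0 and 3.50 in iHep and 13.91 and 13.80 in adult liver (-10.08, SE 0.26, adjusted p 1.34e-08). Fgg measured 5.02, 6.81 and 6.79 in iHep and 14.42 and 14.23 in adult liver (-8.12, SE 0.49). Thus 1 of 3 chains did not pass and the other 2 were lower in every line. In fetal liver the chains measured 10.67 and 9.74 for Fgb, 11.44 and 10.92 for Fga and 11.96 and 11.46 for Fgg.

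The same held on chromosome 9. Apoa1, which shapes the particles of high-density lipoprotein, measured 14.97, 14.90 and 14.89 in iHep and 14.71 and 14.65 in adult liver (0.24, SE 0.28, adjusted p 0.501). It was the brightest probe set on each iHep array, where the top of the scale bounds any difference. Its neighbours Apoc3, an inhibitor of triglyceride clearance, Apoa4 and Apoa5 had log2 fold changes of -8.08, -5.19 and -7.26, with Apoc3 at 6.58, 5.80 and 6.05 in iHep and 14.19 and 14.26 in adult liver. In the Apoe cluster, Apoe, the ligand for remnant uptake, measured 7.17, 8.20 and 8.22 in iHep and 14.32 and 14.42 in adult liver (-6.50, SE 0.65), and Apoc1 and Apoc4 had log2 fold changes of -8.30 and -6.57. Apoc2, the cofactor of lipoprotein lipase, measured 10.40, 11.66 and 12.60 in iHep and 13.75 and 12.44 in adult liver and did not pass, but did so without iHep 3 (-2.07). In the albumin cluster, Alb measured 5.69, 9.90 and 11.59 in iHep and 14.99 and 14.75 in adult liver (-5.81, SE 1.29). Afp, the fetal albumin relative, measured 5.95, 7.58 and 10.05 in iHep and 6.1 and 6.29 in adult liver and did not pass, but was called higher without iHep 1 (2.61, adjusted p 0.00931).

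**Figure D4:**
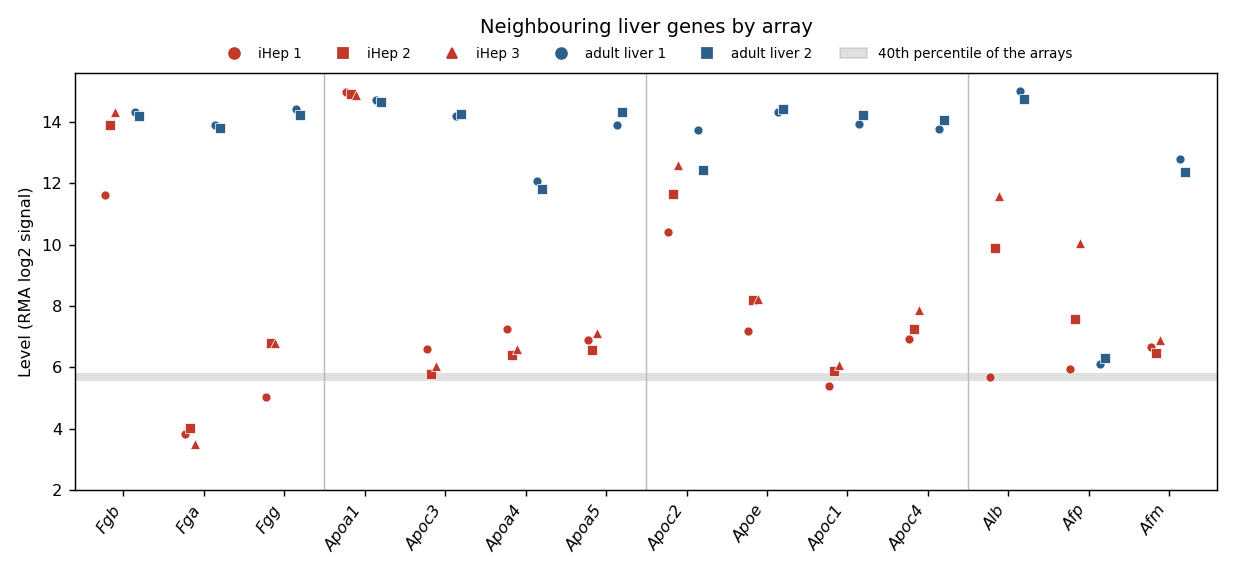
Level (RMA log2 signal) of neighbouring liver genes on each iHep array (red) and adult liver array (blue), with vertical lines between the fibrinogen, Apoa1, Apoe and albumin clusters and a grey band at the 40th percentile. Fgb and Apoa1 in iHep reach 14.34 and 14.97, while Fga stays between 3.50 and 4.0.

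The promoters of the fibrinogen genes, Apoa1 and Alb are shown because the neighbours, or for Alb the lines, differed. Each sequence is the 250 bases before the transcription start, 5′ to 3′ on the strand of the gene, from RefSeq, build GRCm38.p6. Capitals mark matches, on either strand, to an HNF1 motif (GTTAATNAT), an HNF4 motif (CAAAGTCCA), a FOXA motif (TGTTTAC), a C/EBP motif (TTGCNNAA) or a CDX motif (TTTATNG).
Fgb (chr3:83049864-83050113, minus strand): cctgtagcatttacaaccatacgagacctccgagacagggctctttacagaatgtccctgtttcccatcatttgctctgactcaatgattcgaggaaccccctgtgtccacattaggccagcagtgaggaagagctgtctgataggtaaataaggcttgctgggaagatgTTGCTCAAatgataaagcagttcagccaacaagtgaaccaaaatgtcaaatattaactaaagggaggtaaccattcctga
Fga (chr3:83025903-83026152, plus strand): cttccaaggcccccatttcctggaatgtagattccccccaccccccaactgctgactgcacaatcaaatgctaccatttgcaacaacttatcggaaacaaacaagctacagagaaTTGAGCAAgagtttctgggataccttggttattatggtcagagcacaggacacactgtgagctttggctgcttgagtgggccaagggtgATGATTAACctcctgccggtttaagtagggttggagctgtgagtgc
Fgg (chr3:83007474-83007723, plus strand): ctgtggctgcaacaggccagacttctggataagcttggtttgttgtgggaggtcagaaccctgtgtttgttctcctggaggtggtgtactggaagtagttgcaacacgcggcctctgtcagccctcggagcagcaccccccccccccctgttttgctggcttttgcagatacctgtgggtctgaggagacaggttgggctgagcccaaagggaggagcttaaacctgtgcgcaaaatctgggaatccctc
Apoa1 (chr9:46228380-46228629, plus strand): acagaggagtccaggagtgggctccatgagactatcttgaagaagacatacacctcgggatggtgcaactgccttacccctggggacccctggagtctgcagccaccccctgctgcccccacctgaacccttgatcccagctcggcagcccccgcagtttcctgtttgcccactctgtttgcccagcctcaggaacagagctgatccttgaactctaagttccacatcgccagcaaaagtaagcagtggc
Alb (chr5:90460620-90460869, plus strand): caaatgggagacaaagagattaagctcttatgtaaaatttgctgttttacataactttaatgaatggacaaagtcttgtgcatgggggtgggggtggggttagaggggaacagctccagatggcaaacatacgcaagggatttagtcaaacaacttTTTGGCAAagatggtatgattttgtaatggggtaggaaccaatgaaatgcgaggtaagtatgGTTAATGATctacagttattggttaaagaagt
Of the 5 windows, Fgb held a C/EBP match at -80 to -73 from the start, Fga an HNF1 match at -46 to -38 and a C/EBP match at -135 to -128, and Alb an HNF1 match at -32 to -24 and a C/EBP match at -94 to -87. Fgg and Apoa1 held no match to these letters. Over windows of this length, the HNF1 motif was found in 2.01% of 2144 genes called lower, 0.169% of 4746 called higher and 0.665% of 12187 tested. Within the hepatocyte lists it was found in 6.13% of 212 genes called lower and in 1 of 53 not called. The C/EBP motif was found in 12.5% of genes called lower, 8.45% of those called higher and 9.36% of those tested, but within the hepatocyte lists in 21.7% of those lower and 20.8% of those not called. For HNF4 the shares were 1.12%, 0.40% and 0.558%, for FOXA 3.82%, 2.63% and 2.99%, and for CDX 10.4%, 6.87% and 8.30%, in the same order. These are descriptions of letters, without a test.

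The hepatocyte genes that did not pass were not all low. Of the 64, 41 lay at or above the 90th percentile of the arrays in adult liver. Among the 10 of these with the narrowest intervals was Etfdh, which passes electrons from fatty acid oxidation to ubiquinone, which measured 10.70, 10.81 and 10.79 in iHep and 10.65 and 10.69 in adult liver (95% interval -0.37 to 0.58). Acadm, the medium-chain acyl-CoA dehydrogenase and another of the 10, measured 11.77, 11.69 and 12.00 in iHep and 11.92 and 12.38 in adult liver. Both belong to the fatty acid oxidation list, in which 15 of 23 genes were lower and 3 higher, with 10 lower without adult liver 2 (median -1.0, or 1.05 with the arrays scaled to the added controls). The 4 largest changes of that list were decreases of the fatty acid binding protein Fabp1 (-9.56), the peroxisomal thiolase Acaa1b (-9.02), Cyp4a14, a fatty acid hydroxylase (-8.75), and the peroxisomal enzyme Ehhadh (-4.95). In cholesterol and fatty acid synthesis 6 of 27 were lower (22.2%, near the 18.2% of all genes) and 2 higher (7.41%, under the 37.8% of all genes). When quantile normalization was repeated, 11 were lower. The median was -0.39, or 1.66 with the arrays scaled to the added controls.

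Of 23 liver transcription factors, 20 were called lower and none higher (median -2.29). With the arrays scaled to the added controls 9 were lower and 7 higher (median -0.24), so the direction of the smaller changes depends on the scaling. Onecut1 and Onecut2, cut-homeodomain factors of liver and bile duct, had log2 fold changes of -5.03 and -6.07. Foxa2 measured 5.41, 5.48 and 5.55 in iHep and 10.78 and 10.70 in adult liver (-5.26, SE 0.25), so the untransduced Foxa2 was at probe background in each line. Mlxipl, which turns on glycolytic and lipogenic genes when glucose is high, had a log2 fold change of -7.02, Zbtb20, a repressor of Afp, -4.35, and Hhex, needed for the liver bud, -3.80. Cebpa measured 8.75, 8.20 and 8.55 in iHep, above the 40th percentile, and 10.48 and 10.93 in adult liver (-2.21, SE 0.25). Cebpb, a C/EBP factor active in many cell types, measured 9.69, 11.56 and 11.85 in iHep and 10.96 and 11.39 in adult liver and did not pass.

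Of 34 nuclear receptors, 15 were lower (44.1%, against 18.2% of all genes) and 6 higher (17.6%, against 37.8%). When quantile normalization was repeated, 3 were higher. The median was -0.47, or 1.58 with the arrays scaled to the added controls. The metabolic receptors were the lowest: the bile acid receptor Nr1h4 measured 4.51, 4.65 and 4.77 in iHep and 10.59 and 10.84 in adult liver (-6.07, SE 0.22). Ppara, the fatty acid receptor, had a log2 fold change of -5.52 and the xenobiotic receptors Nr1i3 and Nr1i2 -4.54 and -3.32. Pparg, the adipocyte receptor, measured 9.39, 8.82 and 9.14 in iHep and 5.88 and 5.97 in adult liver (3.20, SE 0.22). Nr2f1, a receptor of mesenchyme and neurons, had a log2 fold change of 4.53. The glucocorticoid receptor Nr3c1, the target of the dexamethasone in the medium, measured 9.69, 9.96 and 9.51 in iHep and 9.36 and 10.13 in adult liver, and Rxrb 10.00, 9.79 and 10.16 in iHep and 10.40 and 10.25 in adult liver, and neither passed. All 12 tested genes of the growth hormone axis and of sex-biased liver expression were lower (median -4.73), including Igfals, which carries IGF-1 in blood (-5.77). The 3 major urinary protein genes were lower, and Mup3 and Mup5 of these are already counted in that list. The adult livers themselves differed, with Mup5 at 6.75 and 11.90 and Mup10 at 6.05 and 10.13. Their log2 fold changes were -4.52 and -4.64, and -1.94 and -2.60 without adult liver 2, and that of Mup5 was -7.10 without adult liver 1.

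The lines came from fibroblasts. Of 28 fibroblast genes, 5 were higher (17.9%) and 4 lower (14.3%), both under the shares of all genes tested, 37.8% and 18.2%. The count of higher genes was 10 without iHep 1 and 3 without either adult liver. The list averaged 6.95, 9.12 and 8.97 in iHep and 7.93 and 7.47 in adult liver, so iHep 1 lay below the livers and the other lines above them. Vim, the mesenchymal intermediate filament, was high in all lines at 13.77, 13.88 and 13.29, against 9.67 and 7.81 (4.91, SE 0.49). Bgn, a matrix proteoglycan, measured 7.48 in iHep 1 and 13.43 and 13.25 in iHep 2 and 3, against 10.59 and 9.63 in adult liver, and passed without iHep 1 (3.23). Dcn, a related proteoglycan, was lower (5.28, 5.98 and 6.3 in iHep, against 12.25 and 11.64, -6.09). Of 34 collagens 3 were higher (8.82%, under the 37.8% of all genes) and 7 lower (20.6%, near the 18.2% of all genes). Without iHep 1, 6 were higher. Their median was -0.15, with the sign turning under centring, 0.01, and with scaling to the added controls, 1.90.

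Of the mesenchymal transcription factors, 9 of 18 were higher in iHep (50.0%, against 37.8% of all genes) and the other 9 did not pass. Twist1, a driver of mesenchymal fate, measured 9.36, 9.35 and 9.14 in iHep and 4.48 and 5.04 in adult liver (4.52, SE 0.37, adjusted p 6.52e-06), with the 3 lines nearly equal. Tbx15 and Foxc1, factors of skeletal and mesodermal mesenchyme, had log2 fold changes of 3.84 and 3.46. Prrx1 measured 6.18, 9.70 and 8.71 in iHep and 5.38 and 4.63 in adult liver (3.19), a call that ended without adult liver 2 (2.82). In the HOX clusters 11 of 30 genes were higher (36.7%, near the 37.8% of all genes tested). Hoxc8 measured 8.65, 9.96 and 10.01 in iHep and 3.42 and 3.24 in adult liver (6.21), and Hoxa10 and Hoxb3 had log2 fold changes of 3.94 and 3.73.

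The lines, each measured on 1 array, differed from each other, and iHep 1 most. With 1 array per line, a difference between lines and one between single cultures, RNA samples or arrays cannot be told apart. Among called genes with the largest SD over the lines, Ttr, which carries thyroid hormone and retinol-binding protein, measured 4.93, 8.84 and 12.00 in iHep and 14.33 and 14.74 in adult liver (-5.94, SE 1.5). Cyp3a11, a main drug-metabolizing P450, measured 4.13, 9.37 and 10.50 in iHep and 14.29 and 14.67 in adult liver (-6.48, SE 1.46). Ogn, a matrix proteoglycan, measured 4.41, 11.46 and 11.92 in iHep and 4.48 and 3.90 in adult liver (5.07, SE 1.78), a call that ended without adult liver 1 (5.37) or adult liver 2 (4.78). In these genes iHep 1 was at probe background, whether adult liver was high or low. Pof1b, an actin-binding epithelial protein, measured 5.76, 11.11 and 11.51 in iHep and 3.59 and 3.97 in adult liver (5.68, SE 1.37). Rpl39l, a ribosomal protein gene best known from testis, measured 4.53, 12.16 and 12.34 in iHep and 5.32 and 4.74 in adult liver and passed without iHep 1 (7.22, adjusted p 2.79e-07). The opposite order was seen in Krt7, a bile duct keratin, at 12.03, 8.16 and 8.79 in iHep and 6.08 and 5.87 in adult liver (3.68).

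**Figure D5:**
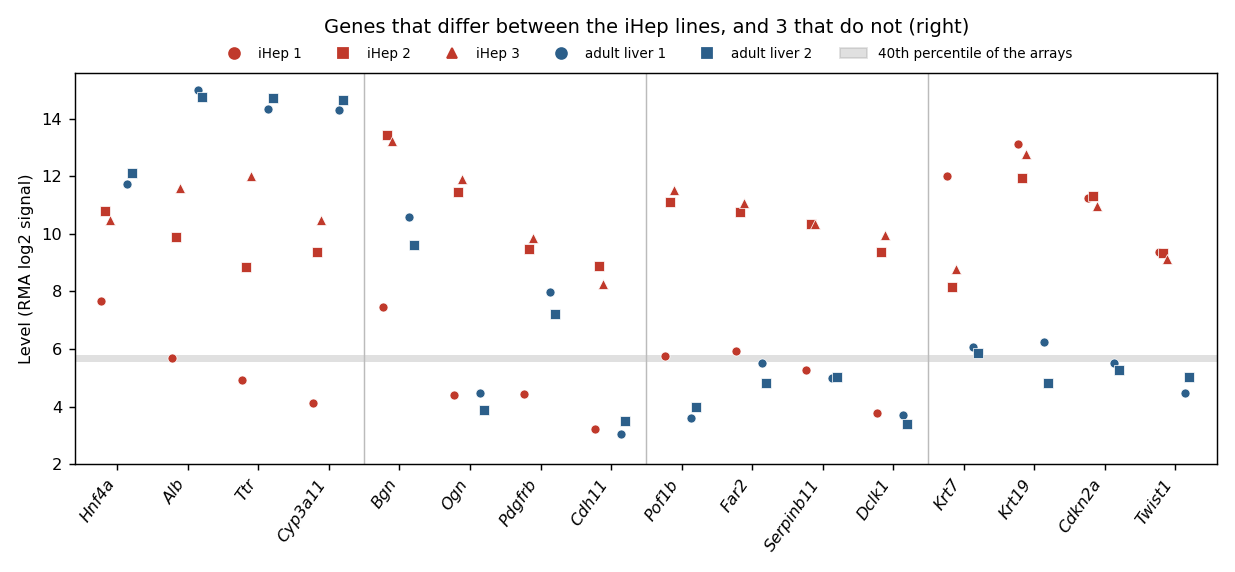
Level (RMA log2 signal) on each iHep array (red) and adult liver array (blue) of liver genes, fibroblast and stromal genes, epithelial and other genes that differed between the lines (1 array each), and of Krt7, Krt19, Cdkn2a and Twist1. The genes were chosen for the plot after their values were seen. iHep 1 (red circles) lies at or under the grey band, the 40th percentile, for Alb, Ttr, Cyp3a11, Ogn, Pdgfrb, Cdh11 and Dclk1, and is the highest line for Krt7.

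Bile duct and epithelial genes were partly shared. Of 17 cholangiocyte and progenitor markers, 9 were higher (52.9%, against 37.8% of all genes) and 4 lower (median 2.29). Krt19, the duct keratin, measured 13.11, 11.93 and 12.77 in iHep and 6.23 and 4.83 in adult liver (7.07, SE 0.42, adjusted p 9.4e-07). Sox4 and Anxa1, a progenitor factor and a lipid-binding protein, had log2 fold changes of 5.78 and 5.60, while the duct water channel Aqp1 was lower (-4.65). The secretin receptor Sctr, a defining duct gene, measured 7.15, 6.91 and 6.86 in iHep and 6.71 and 6.61 in adult liver and did not pass. Among 35 junction and polarity genes, 7 were higher (20.0%, against 37.8% of all genes) and 11 lower (31.4%, against 18.2%). Their median was -0.30, or 1.75 with scaling to the added controls. The hepatocyte gap junction genes Gjb1 and Gjb2 had log2 fold changes of -4.86 and -7.32. Of the claudins, Cldn10 was higher (5.05) and Cldn1 lower (-3.84), and Cldn2, a channel-forming claudin, measured 10.32, 9.57 and 10.60 in iHep and 10.64 and 11 in adult liver and did not pass, but was called lower without iHep 3 (-0.88).

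Genes of the gut were uneven. Of 20 goblet cell genes, 10 were higher (50.0%, against 37.8% of all genes) and 2 lower, with none lower without adult liver 2 and 1 without adult liver 1. Clca1, a protease secreted with mucus, measured 12.56, 10.69 and 10.26 in iHep and 3.61 and 3.79 in adult liver (7.47, SE 0.59). The trefoil factor neighbours parted: Tff3, a mucosal repair peptide, measured 13.97, 13.71 and 14.51 in iHep and 9.67 and 6.69 in adult liver (5.88), while Tff2 measured 6.67, 6.37 and 6.48 in iHep and 6.00 and 6.04 in adult liver and did not pass. Of 22 enteroendocrine genes 2 were higher (9.09%) and 3 lower (13.6%), both under the shares of all genes, 37.8% and 18.2%. The count lower was 1 without iHep 2 or iHep 3. With scaling to the added controls 21 were higher, but so were 13475 of all 15262 genes tested. The factors Atoh1 and Spdef that specify secretory cells measured 5.09 to 5.33 and 6.08 to 6.65 in iHep, against 5.20 to 5.47 and 6.23 to 6.63 in adult liver, and did not pass. Among enterocyte and colonocyte genes 5 of 31 were higher (16.1%, against 37.8% of all genes) and 10 lower (32.3%, against 18.2%). Their median was -0.41, or 1.64 with scaling to the added controls. Vil1, the microvillus protein villin, measured 10.85, 9.92 and 11.51 in iHep and 5.13 and 5.15 in adult liver (5.62, SE 0.39), and Aqp8, a water channel that liver also makes, was lower (-6.24).

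Growth genes gave the highest lists. Of 26 DNA replication genes 25 were higher (median 3.75) and of 29 mitosis genes 28 (median 4.02), the exceptions being Mcm10 and Foxm1, which did not pass. Mcm6, a subunit of the replicative helicase, measured 10.62, 11.43 and 11.05 in iHep and 5.21 and 4.63 in adult liver (6.11, SE 0.35). Birc5 and Aurkb, of the chromosomal passenger complex, had log2 fold changes of 6.73 and 5.34. Set against fetal liver, a growing tissue, in the comparison that shares the iHep arrays, Mcm6 measured 12.44 and 11.99 there, above the lines, and 16 of 26 replication genes and 14 of 29 mitosis genes were lower in iHep (13.1% of all genes tested were). The fetal liver arrays also read blood cell genes: the 7 erythroid markers averaged 4.73, 4.66 and 4.57 in iHep and 12.60 and 12.92 in fetal liver (median -7.66), and the 8 neutrophil markers 5.56, 5.68 and 5.63 in iHep and 12.17 and 12.59 in fetal liver (median -7.25). Their part in the differences from fetal liver was not tested. The list of cell cycle inhibitors and p53 genes also holds D-type and E-type cyclins and E2F factors. Of its 27 genes tested, 22 were higher than in adult liver (81.5%, against 37.8% of all genes), so the share is not that of inhibitors alone. Cdkn2a, the locus of the p16 and ARF tumour suppressors, measured 11.24, 11.32 and 10.98 in iHep and 5.50 and 5.28 in adult liver (5.79, SE 0.40, adjusted p 2.06e-06), and 3.79 and 4.89 in fetal liver. Zmat3, a p53 target, measured 11.74, 11.32 and 11.18 in iHep, 6.96 and 6.45 in adult liver and 6.22 and 6.32 in fetal liver (4.71 against adult liver, SE 0.26).

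Signalling targets followed in part. Immediate early and stress genes were higher for 21 of 27 (77.8%, against 37.8% of all genes), among them Fos, at 12.81, 10.04 and 12.34 in iHep and 7.04 and 7.98 in adult liver (4.22, SE 0.67). Of 22 EGF, HGF and ERK genes, 13 were higher (59.1%) and 5 lower. Ereg, an EGF receptor ligand, measured 11.19, 9.34 and 7.87 in iHep and 4.09 and 3.42 in adult liver (5.71), and the feedback inhibitor Spry2 had a log2 fold change of 3.20. Met, the receptor of the hepatocyte growth factor in the medium, measured 10.07, 10.40 and 10.45 in iHep and 10.33 and 11.27 in adult liver and did not pass, but was called lower without adult liver 1 (-0.96). Of 21 YAP and TGF-beta genes, 12 were higher (57.1%), with Ccn2, a matricellular target of both, at 13.88, 13.06 and 11.26 in iHep and 5.50 and 5.67 in adult liver (7.15, SE 0.61), and the receptor gene Tgfbr2 at a log2 fold change of 4.52. Hmga2, a chromatin protein of embryonic cells, measured 11.65, 12.11 and 11.15 in iHep and 5.11 and 5.61 in adult liver (6.28, SE 0.40). Of the 18 oncofetal and imprinted genes 6 were higher (33.3%, under the 37.8% of all genes), 10 without iHep 1 and 3 without adult liver 2. Igf1, the growth factor that liver secretes, was lower (-5.50).

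Housekeeping complexes were higher as well. Of 41 cytosolic ribosomal protein genes, 37 were higher (90.2%, median 1.92), and of 72 respiratory chain and ATP synthase genes, 52 (72.2%, median 1.16). When the shared probe sets, as defined above, were left out, 11 of 21 and 47 of 57 were higher. Their medians were 1.67 and 0.74 when quantile normalization was repeated and 3.97 and 3.21 when arrays were scaled to the added controls. Rps6 measured 10.68, 10.43 and 10.57 in iHep and 7.53 and 7.24 in adult liver (3.17, SE 0.21), and Ndufs4 of complex I 11.18, 11.40 and 11.43 in iHep and 7.76 and 8.93 in adult liver (2.99, SE 0.32). Set against fetal liver, 5 of 41 and 5 of 72 were higher, against 19.9% of all genes. The 3′ to 5′ difference in fetal liver was 0.49 and 0.36 for Actb, and for Gapdh it was -0.04, -0.09 and 0.04 in iHep, 1.05 and 1.46 in adult liver and 0.44 and 0.33 in fetal liver, and the part of RNA quality in these counts was not tested. In the NRF2 and pentose phosphate list 9 of 17 were higher (52.9%, against 37.8% of all genes), but 4 of 13 with shared probe sets left out and 6 of 17 with repeated quantile normalization or without adult liver 1. It included Pgd (2.38), and Osgin1, an oxidative stress gene, was lower (-4.70).

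Markers of the other liver cells moved with the comparison. All 13 Kupffer cell markers were lower (18.2% of all genes tested were), and 9 with scaling to the added controls. The median of these markers was -5.18, and it was -3.87 without adult liver 1 and -5.99 without adult liver 2. Their mean was 5.22, 5.08 and 5.12 in iHep, under the 40th percentile, and 10.82 and 8.73 in adult liver. Vsig4, a complement receptor of these cells, measured 4.62, 4.10 and 4.09 in iHep and 12.34 and 10.02 in adult liver (-6.91, SE 0.65). Of 15 liver endothelial markers 10 were lower (5 with scaling to the added controls), with means of 6.47, 6.12 and 6.31 in iHep and 8.91 and 7.97 in adult liver, and Clec4g, a sinusoidal lectin, at -5.73. Of 12 stellate cell markers 5 were lower, 2 without adult liver 1 and 3 without adult liver 2, and of 11 lymphocyte markers 8 (medians -0.57 and -1.76, or 1.48 and 0.29 with scaling to the added controls). As deposited, 66.7% of the endothelial, 41.7% of the stellate cell and 72.7% of the lymphocyte markers were lower, against 18.2% of all genes. The stellate cell counts without either adult liver lay nearer that share. Ptprc, the leukocyte antigen CD45, measured 3.50, 3.42 and 3.36 in iHep and 10.96 and 9.39 in adult liver (-6.75). In such bulk samples, fewer cells of a type and less RNA per cell cannot be told apart. Kupffer cell and leukocyte markers were thus measured well above probe background on the arrays labelled adult liver, and higher in adult liver 1 than in adult liver 2. Their part in the other differences was not tested.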

How the data were processed

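RNA of each sample was amplified, labelled with biotin and hybridized to 1 Affymetrix mouse genome array, per the labels' protocols. The deposited values are log2 signals per probe set that the authors computed with RMA, per the submitters' processing notes. No source used here gives its version. Of 45101 probe sets, the platform annotation gave 1 gene symbol to 34945 and several to 932. It left out 9160, and 64 more were control probe sets. For each of the 18193 genes, the brightest probe set on average across all 25 arrays was used. Of 5011 called genes with several probe sets, 605 had another probe set called the other way.

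limma 3.58.1 in R 4.3.3 (lmFit, contrasts.fit, eBayes) was fitted to 11 arrays (iHep, adult liver, fetal liver, engrafted iHep and colon, 6 residual degrees of freedom). Genes above the 40th percentile of their array in at least 2 of these were tested, two-sided, with Benjamini-Hochberg adjustment over all genes of a comparison and a threshold of 0.05, with no minimum fold. Data were simulated once for iHep against adult liver (15322 genes, 100 changed at each size, all others equal in the 2 groups). The fit recovered 13% of log2 changes of 1 and 69% of changes of 2, and 9.89% of 91 calls were false. Far more genes, 8537, were called in the real data, and the adjusted threshold depends on the share of changed genes. These rates therefore do not describe the real comparison. Intervals are 95% intervals from the fit. Same-numbered arrays of the 2 groups did not deviate together (r from -0.055 to -0.012), so the numbers were not used to pair arrays.

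Named genes were the transgenes, the 10 highest and 10 lowest called genes without overlap (over all genes, and among those above the 40th percentile in both groups), the 10 called genes with the largest SD over the lines, the 10 hepatocyte genes not called with the narrowest intervals, neighbours in clusters, and from each list up to 4 called and 3 not called members. Isoenzymes, serine synthesis genes and the genes of the plot of line differences were chosen after their values were seen. The groups, members and gene lists were chosen with earlier results of these data known. Promoters are the 250 bases before the start in RefSeq windows of 27025 genes. Alternatives covered the level filter, probe set choice, scaling, arrays in the fit, a minimum change and leaving out each array. pandas 2.3.3 and matplotlib 3.10.9 in Python 3.11.15 made tables and figures.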

Additional observations from a re-analysis of the deposited data

How the results depend on the processing

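Against adult liver, 8537 genes were called. With a minimum log2 change of 1 the test called 4069 (3018 higher, 1051 lower), with every probe set as its own feature 15646 of 28489 (10180 higher, 5466 lower), and with arrays scaled to the added controls 14121 (13475 higher, 646 lower). The no-filter, 60th percentile, mean of probe sets, shared probe sets left out, repeated quantile normalization, centring, trend and robust, fewer arrays and 25-array settings gave 7348 to 10159. Leaving out 1 array gave 6990 to 8079 (higher 4918 to 5585, lower 2072 to 2494). The share of calls that were higher was 67.5%, and 59.1% after repeated quantile normalization, 73.1% after centring and 95.4% with control scaling, where the median of all genes moved to 0.14, 0.42 and 2.31 from 0.26. With the replicate number as a block, 7653 genes were called (5295 higher, 2358 lower), although the numbers do not pair the arrays; the correlations in question were -0.012 and -0.055. Against fetal liver, 5038 were called, 1705 (998 higher, 707 lower) with the minimum change, 4065 with the block, and 3007 to 4518 without 1 array (higher 1792 to 2823, lower 1215 to 1709), lowest without fetal liver 2. Some directions depended on the probe set: Esrra -0.09, Nr2c2 -0.29 and Zeb1 -0.79 with the mean of probe sets, and Igf2bp3 -0.67, Masp1 -5.59, Msx1 -0.85, Nr4a2 -0.13, Plagl1 -0.06 and Srxn1 -0.50 without shared probe sets were below 0, where the chosen probe sets were at or above it. Nr2c2 was -0.01 after repeated quantile normalization, and Got1 was -1.23 without adult liver 1 and 0.98 without adult liver 2. The cause was not tested. Signal near probe background limits fold changes of genes under the 40th percentile of an array.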
